A study of Mus musculus with 18 samples.

Results

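9 genes of the naive pluripotency network, Esrrb, Tbx3, Tcl1, Nr0b1, Prdm14, Tfcp2l1, Zfp42, Jam2 and Nr5a2, were followed across 6 mouse pluripotent lines. They were matched to the array by gene symbol: every probe set annotated with a single symbol among the 9 was kept, which gave 24 of the 45037 probe sets and 9 of the 18193 genes measured. The 9 symbols themselves had been chosen from earlier comparisons of these same arrays with the line ESC2. Tbx3, Tcl1, Jam2 and Nr0b1 had drawn attention by their levels in IP20D-3, Esrrb in 3 of the induced lines and Zfp42 and Tfcp2l1 in IP14D-101. Differences from ESC2 and the differences of IP20D-3 and IP14D-101 from other lines are therefore given for the 9 genes as descriptions, without a test.

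The lines were 2 embryonic stem (ES) lines and 4 induced pluripotent stem (iPS) lines, which are made from somatic cells by reprogramming. R1 is an ES line of strain 129X1/SvJ x 129S1 F1 and ESC2 an ES line of strain B6 x D2 F1. IP14D-1, IP20D-3 and IP36D-3 are iPS lines labelled B6 x D2 F1, and IP14D-101 is an iPS line labelled B6 x 129S2 F1. All lines grew with leukaemia inhibitory factor (LIF) on mitomycin C treated mouse embryonic fibroblasts, in medium with either fetal bovine serum or a serum replacement; which of them a given line received is not known here. Total RNA of each line was hybridised to 3 Affymetrix arrays, 18 in all, which the submitters call biological replicates. Each line is a single line, so a difference between lines cannot be told apart from a difference in strain, origin or culture history. Each standard error and p-value reflects only how the 3 arrays within a line varied, pooled over all lines. The parental fibroblasts of the iPS lines were not analysed here.

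Mouse pluripotent cells move between a naive state, that of the preimplantation epiblast, and a primed state, that of the epiblast after implantation. Pou5f1, Sox2 and Nanog are expressed in both, while a second layer of regulators is high in the naive state and is lost as cells become primed. LIF feeds this layer through STAT3, which activates Tfcp2l1 and Klf4, and through PI3K signalling, which sustains Tbx3. Inhibition of GSK3 relieves repression by TCF7L1 and raises Esrrb, while FGF and ERK signalling drives cells towards the primed state.

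Levels are log2 of the deposited intensity of the gene's main probe set, the probe set of highest mean over the 18 arrays. Array medians lay between 29.2 and 30.5 in intensity, which is 4.87 to 4.93 on the log2 scale. Of the 24 probe sets, 18 were above the median of every array and 4 were above the median of none (Tbx3 1444594_at, Tfcp2l1 1460714_at and 1460715_x_at and Nr5a2 1449707_at). The line means of Pou5f1, Sox2 and Nanog lay between 12.12 and 12.64, 11.58 and 12.18, and 11.24 and 11.80. No cells other than these lines were set beside them, so the levels do not establish the identity of a line. The spread over line means was 0.52 for Pou5f1, 0.60 for Sox2 and 0.57 for Nanog, below the 0.87 of the median gene.

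The second layer varied far more. The distance from the lowest to the highest line mean was 3.11 for Tbx3, 2.70 for Tcl1, 2.55 for Jam2, 2.51 for Nr0b1 and 2.33 for Prdm14. It was 2.19 for Esrrb, 2.13 for Zfp42, 1.93 for Tfcp2l1 and 0.89 for Nr5a2. Among the 8958 genes with a mean of at least 6, 0.793% varied as much as Tbx3 and 47.6% as much as Nr5a2. Because the genes were chosen for differences between these lines, these distances are a description. By main probe set, ESC2 had the lowest line mean of 8 of the 9 genes, all but Nr5a2, and IP20D-3 had the highest of 6. For Jam2, ESC2 and IP36D-3 were level at 8.30. The mean over the 9 genes was 7.91 ± 0.02 (SD, n = 3) in ESC2, 8.44 ± 0.05 in IP36D-3, 8.90 ± 0.08 in IP14D-1, 8.93 ± 0.07 in R1, 9.33 ± 0.03 in IP14D-101 and 9.90 ± 0.02 in IP20D-3. IP14D-1 and R1 overlapped on this mean, and no other neighbours did. In RNA from whole cultures, fewer cells that express a gene and less of its RNA per cell cannot be told apart.

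RNA quality measures differed between lines as well. The 3′ to 5′ signal ratio of beta-actin, which rises as RNA is shortened, was 1.53 ± 0.04 in ESC2 and 1.13 to 1.28 in the means of the other 5 lines. It was 1.28 ± 0.02 in IP20D-3, 1.27 ± 0.02 in IP14D-1 and 1.26 ± 0.02 in IP36D-3. The same ratio for Gapdh was lowest in ESC2 (0.891 ± 0.019), next to IP36D-3 (0.906 ± 0.016) and IP20D-3 (0.909 ± 0.023), and was 0.958 to 0.961 in the means of the other 3 lines. The lines also differed in the signal of an 18S ribosomal RNA control, whose intensity was highest and most variable in IP20D-3, at 178.3 to 539.5 over its 3 arrays. Its mean was 212.8 in ESC2, 196.0 in IP36D-3, 79.0 in IP14D-1, 54.6 in R1 and 42.5 in IP14D-101. ESC2 and IP20D-3, the lines with the lowest and the highest mean of the 9 genes, thus stood at the end of 1 or more of these measures, and the part of RNA quality in the levels of the 9 genes was not tested.

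**Figure D1:**
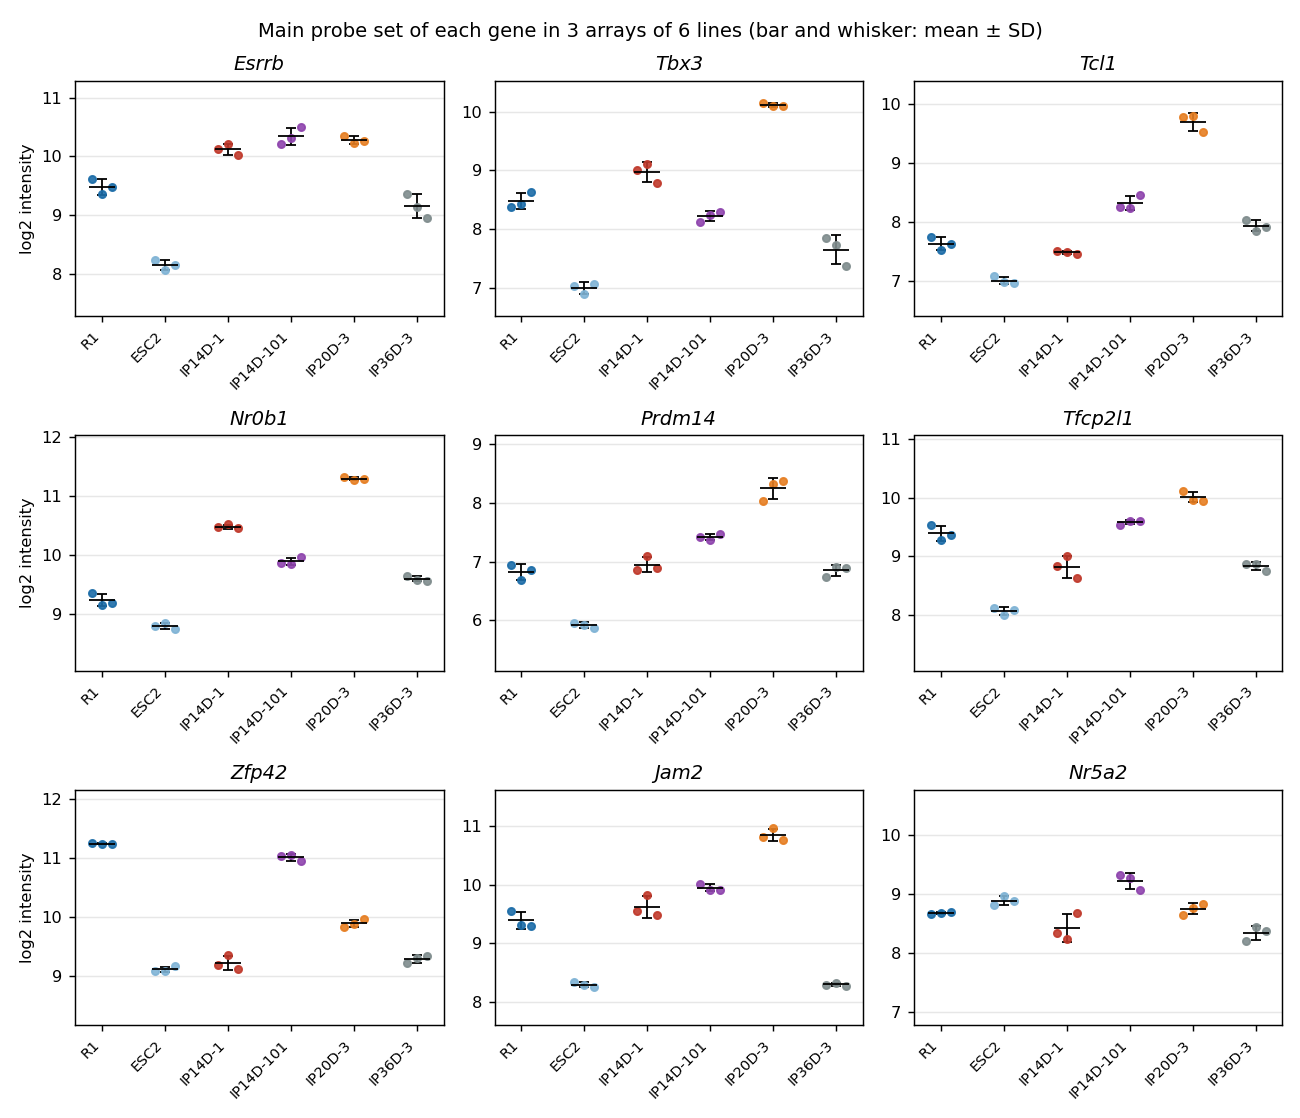
Log2 intensity of the main probe set of each of the 9 genes (vertical axes, a different range in each panel) in the 3 arrays of each of 6 lines (horizontal axes); points are arrays, bars and whiskers the mean ± SD. IP20D-3 stands highest for Tbx3 (10.11), Tcl1 (9.70) and Nr0b1 (11.30), and R1 and IP14D-101 stand highest for Zfp42 (11.24 and 11.01). ESC2 has the lowest mean in every panel but that of Nr5a2, level with IP36D-3 in that of Jam2.

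Among the transcription factors fed by signals from outside the cell, Tbx3 showed the widest range. Tbx3 is a T-box factor that supports self-renewal downstream of LIF and PI3K. Its main probe set read 7.04, 6.89 and 7.08 in ESC2, 7.85, 7.73 and 7.38 in IP36D-3, and 8.13, 8.24 and 8.30 in IP14D-101. It read 8.38, 8.42 and 8.62 in R1, 9.01, 9.12 and 8.78 in IP14D-1, and 10.15, 10.09 and 10.09 in IP20D-3. By this probe set the arrays of no 2 neighbouring lines overlapped. IP20D-3 stood 3.11 ± 0.12 (SE) above ESC2, an 8.62-fold difference in intensity. The probe sets 1437479_x_at and 1445757_at gave the same order of lines, with correlations of 0.981 and 0.947 with the main probe set over the 18 arrays, but in both of them R1 overlapped IP14D-1 and IP14D-101, and in 1445757_at IP36D-3 overlapped ESC2. The probe set 1439567_at (correlation 0.882) placed IP14D-101 second, and R1 above IP14D-1.

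Esrrb, an orphan nuclear receptor that is a target of NANOG and of GSK3 inhibition, separated the lines differently. Its main probe set read 10.12, 10.21 and 10.03 in IP14D-1, 10.21, 10.31 and 10.49 in IP14D-101, and 10.35, 10.23 and 10.26 in IP20D-3. It read 9.61, 9.35 and 9.48 in R1, 9.37, 9.14 and 8.96 in IP36D-3, and 8.23, 8.07 and 8.16 in ESC2. By this probe set 3 iPS lines stood highest, with IP14D-101 and IP20D-3 overlapping, R1 and IP36D-3 overlapped below them, and ESC2 lay apart at the bottom. The other Esrrb probe sets gave other groupings. By 1422986_at, IP20D-3 (8.68) and IP14D-101 (8.51) stood highest, and IP14D-1 lay at 7.76 ± 0.01, beside IP36D-3 at 7.75 ± 0.15 and R1 at 7.56. By 1441921_x_at, IP36D-3 was at 7.57 ± 0.14 beside ESC2 at 7.50 ± 0.19.

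Tfcp2l1 is a CP2-family factor and a direct target of STAT3. It read 8.13, 8.01 and 8.08 in ESC2, 8.84, 9.0 and 8.63 in IP14D-1, and 8.87, 8.87 and 8.76 in IP36D-3. It read 9.54, 9.29 and 9.36 in R1, 9.54, 9.60 and 9.61 in IP14D-101, and 10.11, 9.97 and 9.95 in IP20D-3. IP14D-1 and IP36D-3 overlapped, and the highest array of R1 came next to the lowest of IP14D-101, while ESC2 and IP20D-3 stood clear at either end. Its other 2 probe sets lay between 2.32 and 2.98 on all 18 arrays and did not follow the main one.

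Nr0b1, Prdm14 and Tcl1 act inside the network. Nr0b1 (DAX1) is an X-linked orphan receptor without the usual DNA-binding domain that binds other factors and acts as a corepressor. It read 8.79, 8.85 and 8.73 in ESC2, 9.35, 9.15 and 9.18 in R1, and 9.64, 9.58 and 9.56 in IP36D-3. It read 9.86, 9.85 and 9.96 in IP14D-101, 10.47, 10.52 and 10.45 in IP14D-1, and 11.32, 11.27 and 11.30 in IP20D-3. No neighbouring lines overlapped, and the pooled SD within lines was 0.06. On the X chromosome, the median of 288 genes with a mean of at least 6 differed from ESC2 by -0.075 in IP20D-3, where Nr0b1 was 2.51 ± 0.07 higher. That median differed by -0.021 in IP36D-3, -0.14 in IP14D-1, -0.231 in R1 and -0.317 in IP14D-101. In the same lines Nr0b1 was 0.80, 1.69, 0.44 and 1.10 above ESC2.

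Prdm14 is a PR-domain zinc-finger protein that represses FGF signalling and the de novo DNA methyltransferases in ES cells. Its single probe set read 5.96, 5.91 and 5.86 in ESC2, 6.94, 6.68 and 6.85 in R1, and 6.74, 6.92 and 6.89 in IP36D-3. It read 6.86, 7.09 and 6.89 in IP14D-1, 7.42, 7.36 and 7.46 in IP14D-101, and 8.04, 8.32 and 8.37 in IP20D-3. R1, IP36D-3 and IP14D-1 formed one overlapping group between ESC2 below and IP14D-101 and IP20D-3 above. Tcl1, a coactivator of the kinase AKT and a target of POU5F1, read 7.07, 6.97 and 6.95 in ESC2, 7.50, 7.49 and 7.45 in IP14D-1, and 7.74, 7.52 and 7.62 in R1. It read 8.03, 7.85 and 7.91 in IP36D-3, 8.25, 8.24 and 8.46 in IP14D-101, and 9.78, 9.79 and 9.52 in IP20D-3. Tcl1 thus had 6 separate levels, with a step of 1.38 between IP20D-3 and the next line. The order of the middle lines was not that of the main Tbx3 probe set: IP14D-1 was second highest for Tbx3 and second lowest for Tcl1.

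Jam2, a junctional adhesion molecule of the cell surface, is used as a marker of undifferentiated ES cells. It read 8.34, 8.29 and 8.26 in ESC2 and 8.30, 8.33 and 8.28 in IP36D-3, which overlapped. It read 9.56, 9.32 and 9.30 in R1, 9.55, 9.83 and 9.47 in IP14D-1, 10.02, 9.91 and 9.90 in IP14D-101, and 10.82, 10.96 and 10.76 in IP20D-3. R1 and IP14D-1 overlapped as well. All 5 Jam2 probe sets had their highest line mean in IP20D-3, and the 4 others correlated with the main one at 0.879 to 0.994 over the 18 arrays. The lowest line depended on the probe set. By 1436568_at it was IP36D-3, at 6.04 ± 0.06 under ESC2 at 6.70 ± 0.08, and by 1419288_at these lines overlapped at 5.86 and 5.87.

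Zfp42 (REX1), a zinc-finger gene related to YY1 and a widely used reporter of the naive state, followed another pattern. Its single probe set read 11.25, 11.24 and 11.23 in R1 and 11.04, 11.04 and 10.94 in IP14D-101. It read 9.83, 9.87 and 9.96 in IP20D-3, 9.18, 9.34 and 9.11 in IP14D-1, 9.21, 9.29 and 9.34 in IP36D-3, and 9.08, 9.09 and 9.16 in ESC2. R1 and IP14D-101, the 2 lines with a 129X1/SvJ, 129S1 or 129S2 parent, lay above all 4 B6 x D2 F1 lines, and the lowest of their 6 arrays (10.94) was 0.98 above the highest of the other 12 (9.96). Strain and line cannot be told apart here, and a strain difference under the probes was not tested. IP36D-3, IP14D-1 and ESC2 overlapped. In IP36D-3, the median of 499 genes of chromosome 8 with a mean of at least 6 was 0.56 above ESC2, while Zfp42, on the same chromosome, was 0.17 ± 0.08 above it.

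Nr5a2 (LRH-1), a nuclear receptor that activates Pou5f1 and can replace it in reprogramming, varied least. Its main probe set read 8.20, 8.43 and 8.37 in IP36D-3, 8.33, 8.23 and 8.68 in IP14D-1, and 8.66, 8.68 and 8.69 in R1. It read 8.64, 8.77 and 8.84 in IP20D-3, 8.81, 8.96 and 8.88 in ESC2, and 9.32, 9.28 and 9.07 in IP14D-101. Each of the lower 5 lines overlapped its neighbour, and only IP14D-101 stood apart. The probe set 1456521_at ordered the lines differently, with ESC2 highest at 8.37 ± 0.03 and R1 lowest at 6.94 ± 0.12, and its correlation with the main probe set was 0.399.

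**Figure D2:**
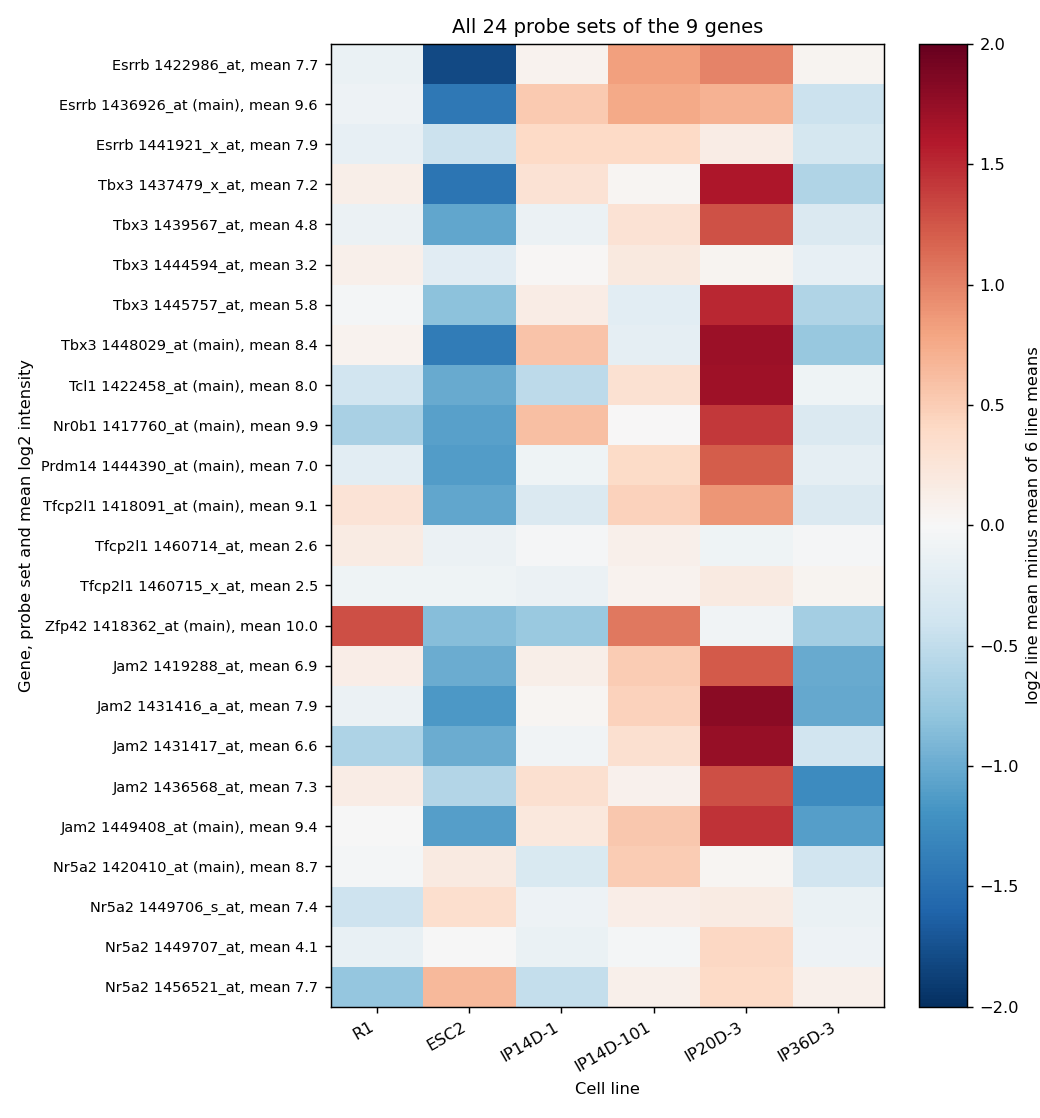
Line mean of each of the 24 probe sets minus the mean of its 6 line means, in log2 units (colour), for the 6 lines (columns); row names give the gene, the probe set and its mean log2 intensity. The Tbx3 and Jam2 rows are reddest in IP20D-3, except for Tbx3 1444594_at, which was above the median of no array, while the Nr5a2 rows differ from one another.

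The start regions of Zfp42, Nr0b1, Tfcp2l1 and Nr5a2 show letters that network factors are known to bind, beside TATAAA or CCAAT. Those of the first 3 are printed, with motif matches in capitals. They are the 250 bases before the RefSeq transcription start (GRCm38.p6, 5′ to 3′ on the gene's strand). Zfp42 differed from the other genes in its pattern, while Nr0b1 and Tfcp2l1 were both highest in IP20D-3. Tcl1 was highest there too, and its window held none of the motifs. The Nr5a2 windows held such letters, although Nr5a2 was not highest there by main probe set. A link between motifs and levels was not tested. Zfp42 is at chr8:43307010-43307259 on the minus strand, Nr0b1 at chrX:86191525-86191774 on the plus strand and Tfcp2l1 at chr1:118627695-118627944 on the plus strand.
Zfp42: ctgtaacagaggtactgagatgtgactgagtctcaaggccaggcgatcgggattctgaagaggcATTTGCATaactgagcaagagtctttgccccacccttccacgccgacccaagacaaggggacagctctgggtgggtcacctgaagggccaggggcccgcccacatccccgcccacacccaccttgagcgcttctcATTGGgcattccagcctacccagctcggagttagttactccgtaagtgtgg
Nr0b1: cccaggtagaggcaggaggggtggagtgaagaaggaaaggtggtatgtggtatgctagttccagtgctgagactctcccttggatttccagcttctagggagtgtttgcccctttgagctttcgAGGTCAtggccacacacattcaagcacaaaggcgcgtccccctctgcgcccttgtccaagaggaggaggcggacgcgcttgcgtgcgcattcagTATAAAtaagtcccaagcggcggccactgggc
Tfcp2l1: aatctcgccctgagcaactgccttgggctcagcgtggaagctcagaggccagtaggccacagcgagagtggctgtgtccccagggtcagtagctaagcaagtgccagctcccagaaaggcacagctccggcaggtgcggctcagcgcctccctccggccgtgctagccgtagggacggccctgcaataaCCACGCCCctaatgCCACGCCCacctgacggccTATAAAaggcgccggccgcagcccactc

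In Zfp42 the capitals mark an octamer, the letters ATTTGCAT bound by POU factors, at 186 to 179 bases before the start, and CCAAT on the minus strand at 51 to 47. The octamer occurred in 1.6% of the 32851 RefSeq windows of this length, on either strand, and CCAAT in 33.8%. In Nr0b1 they mark the core nuclear receptor motif AGGTCA at 126 to 121 bases before the start and the TATA box letters TATAAA at 32 to 27. This core motif occurred in 14% of all windows and the TATA letters in 12.4%. In Tfcp2l1 they mark 2 copies of the KLF motif GGGCGTGG on the minus strand, at 61 to 54 and 47 to 40, which 4.79% of all windows hold, and TATAAA at 28 to 23. The longer receptor motifs TCAAGGTCA (0.387% of windows) and CAAGGTCA (1.33%), which contain the core motif, were in no window of the members. Nor were the SOX motif CATTGTT (3.29%), the STAT motif TTCCNGGAA (0.913%) or the TFCP2L1 motif, CCAG repeated after a gap of 6 bases (2.78%). Windows were at hand for 6 of the 9 genes, 8 in all. Of these, 1 Nr5a2 window held AGGTCA and TATAAA, the other Nr5a2 window GGGCGTGG and CCAAT, 1 Esrrb window CCAAT, and the Tcl1 and other Esrrb windows none of the motifs. A match describes the letters only, and binding was not measured.

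Set against ESC2, 8 of the 9 genes had a higher mean in each of the other 5 lines by main probe set, although Jam2 in IP36D-3 by only 0.004. Nr5a2 differed by -0.21 in R1, -0.47 in IP14D-1, 0.34 in IP14D-101, -0.14 in IP20D-3 and -0.55 in IP36D-3. In IP20D-3, 7 of 9 were at least 1 higher on the log2 scale, against 5.22% of all genes, and the largest differences after Tbx3 were 2.70 ± 0.09 (SE) for Tcl1, 2.54 ± 0.10 for Jam2 and 2.51 ± 0.07 for Nr0b1. In IP14D-101, 8 of 9 were (4.67% of all genes), with Esrrb at 2.19 ± 0.11 and Zfp42 at 1.90 ± 0.08. In IP14D-1, 5 of 9 were (2.08%), with Esrrb and Tbx3 at 1.97 ± 0.11 and 1.97 ± 0.12; without replicate 2 of IP14D-1 the count was 4. In R1, the other ES line, 5 of 9 were (4.38%), and the largest difference was the 2.13 ± 0.08 of Zfp42. In IP36D-3 only Esrrb was (1.91%), at 1.00 ± 0.11, and it fell under 1 without replicate 2 of ESC2 (0.96) or without replicate 1 of IP36D-3 (0.90). By main probe set none of the 9 was at least 1 lower in any of these lines, where 3.38%, 4.07%, 1.36%, 3.75% and 1.47% of all genes were. The Nr5a2 probe set 1456521_at was, at -1.43 ± 0.12 in R1 and -1.13 ± 0.12 in IP14D-1. Since these comparisons chose the genes and share the ESC2 arrays, nothing is read from the counts. The median difference of all genes from ESC2 was 0.15 in both R1 and IP14D-101.

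IP14D-1 and IP36D-3 carry the same strain label, and their comparison takes its difference from neither ESC2 nor IP20D-3, although the arrays of all 6 lines enter its estimate of spread. Tbx3 and Jam2 were higher in IP14D-1: Tbx3 by 1.32 ± 0.12 on the log2 scale (2.49-fold, adjusted p = 1.17e-07 in limma's moderated test with Benjamini-Hochberg adjustment over all probe sets) and Jam2 by 1.31 ± 0.10 (2.49-fold, adjusted p = 1.91e-08). Both were higher in 3 of 3 arrays than in any array of IP36D-3. Genes were called when the adjusted p was below 0.05 and the lines were 1 or more apart in log2 units. By this rule 2 of the 9 were called higher, against 1.5% of all genes, and none lower, against 1.89%. The split of all called genes, 273 higher and 344 lower, became 329 and 260 when quantile normalisation was repeated. The arrays of both lines had also entered the comparisons with ESC2 from which the genes were chosen. Tbx3 stood 1.97 above ESC2 in IP14D-1 and 0.65 in IP36D-3, and Jam2 1.32 and 0.004. The tested difference is the distance between those 2 comparisons, so the test is not independent of the choice of genes. Nothing is read from the count of called members.

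Nr0b1 and Esrrb stood just under the minimum difference, at 0.89 ± 0.07 and 0.96 ± 0.11 higher in IP14D-1, but the Esrrb probe set 1422986_at read 7.76 and 7.75. Esrrb passed it without replicate 3 of IP14D-1 (1.01) or without replicate 1 of IP36D-3 (1.07), which made 3 called genes of 9. Tcl1 went the other way, at -0.45 ± 0.09. Prdm14, Zfp42, Nr5a2 and Tfcp2l1 differed by 0.10, -0.07, 0.08 and -0.01, with 95% intervals of -0.11 to 0.31, -0.23 to 0.09, -0.15 to 0.31 and -0.21 to 0.19. Of the 24 probe sets, 5 were called higher (1.4% of all probe sets): 4 of the 5 of Jam2 and the main one of Tbx3. With the mean of a gene's probe sets in place of the main one, Tbx3 was 0.66 higher and no longer called.

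Markers of fibroblasts moved with this comparison. Of 19 measured fibroblast genes, 9 were called higher in IP14D-1 than in IP36D-3, led by Acta2 (3.18 ± 0.11), the smooth muscle actin, and Lox (2.71 ± 0.17), a collagen cross-linking enzyme. Their summed intensity was 3331.7 to 3557.5 in IP14D-1 and 956.5 to 1020.1 in IP36D-3. 6 of the 19, Col6a3, Postn, Lum, Twist2, Prrx1 and Fap, were under the median of every array. IP20D-3 had the lowest sum (528.6 to 667.5) and R1 the highest (4572.3 to 5168.1), with ESC2 at 2102.8 to 2349.0 and IP14D-101 at 905.6 to 1058.1. A sum gives most weight to strong probe sets such as that of Tagln, which was 12.01 in R1. By the mean log2 over the 19 genes, IP14D-1 was highest (5.47), then ESC2 (5.24) and R1 (4.94), and IP20D-3 was lowest (4.22). The part of feeder or fibroblast-like cells in the levels of the 9 genes was not tested.

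In IP20D-3 several of these transcripts stood above their levels in the other B6 x D2 F1 iPS lines. Against IP14D-1, Tcl1 was 2.22 ± 0.09 (SE) higher (4.66-fold), Prdm14 1.29 ± 0.10, Jam2 1.23 ± 0.10, Tfcp2l1 1.19 ± 0.09 and Tbx3 1.14 ± 0.12. These 5 were at least 1 higher, as were 2.8% of all genes, and none was at least 1 lower (2.15%). The main probe set of Esrrb differed by 0.16 ± 0.11, and its probe set 1422986_at by 0.92 ± 0.12. Against IP36D-3, Jam2 was 2.54 ± 0.10 higher (5.82-fold), Tbx3 2.46 ± 0.12, Tcl1 1.77 ± 0.09 and Nr0b1 1.71 ± 0.07. Here 7 of 9 were at least 1 higher, all but Zfp42 and Nr5a2, as were 2.36% of all genes, and none was at least 1 lower (1.89%). By probe set, 11 of 24 were against IP14D-1 (2.64% of all) and 14 against IP36D-3 (2.04%). The median over the 9 genes was 1.14 and 1.39, beside -0.03 and -0.04 over all genes. With the mean of a gene's probe sets, Tfcp2l1 fell under 1 in both comparisons, at 0.47 and 0.41, its other 2 probe sets being near the floor, and Esrrb fell to 0.85 against IP36D-3. Levels in IP20D-3 chose several of the genes, so nothing is read from these counts.

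Markers of other cell types also differed in IP20D-3. Against IP14D-1, 9 of 19 fibroblast genes were called lower and none higher. Of 10 trophectoderm markers, 3 were called lower, Krt8 (-2.13), Krt18 (-1.64) and Cdx2 (-1.11), and of 14 primitive endoderm markers 3 were called higher, Sox7 (1.41), Lama1 (1.32) and Amn (1.18). Against IP36D-3, 1 fibroblast gene was called lower, Tagln (-1.20), no trophectoderm marker was called, and of the primitive endoderm markers Sox7 and Lama1 were called higher and Cubn and Dab2 lower. Their part in the levels of the 9 genes was not tested.

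IP14D-101 was set against IP14D-1, an iPS line of another strain label, and against R1, the ES line from related 129X1/SvJ and 129S1 parents. Zfp42 was 1.80 ± 0.08 higher than in IP14D-1 (3.48-fold) and was the only one of the 9 to be at least 1 higher, as 1.37% of all genes were, with none at least 1 lower (2.36%). Tcl1, Nr5a2 and Tfcp2l1 were 0.84 ± 0.09, 0.81 ± 0.11 and 0.76 ± 0.09 higher, and Tbx3 and Nr0b1 differed by -0.75 ± 0.12 and -0.59 ± 0.07. Against R1 none of the 9 was 1 or more away in either direction, where 0.698% of all genes were at least 1 higher and 1.82% at least 1 lower. The largest difference from R1 was that of Esrrb, 0.86 ± 0.11, and Zfp42 differed by -0.23 ± 0.08. Zfp42 and Tfcp2l1 had been chosen for their levels in IP14D-101, so nothing is read from these counts.

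Primitive endoderm markers stood apart in IP14D-101, where 0.693% of all genes were called higher than in R1. Of the 14, 9 were called higher than in IP14D-1 and 9 higher than in R1, led in both by Cubn, the endocytic receptor cubilin (5.66 ± 0.17 and 4.58 ± 0.17), and Gata6, the endoderm factor (3.20 ± 0.19 and 2.50 ± 0.19). Their summed intensity was 3850.1 to 4140.2 in IP14D-101 and 1387.4 to 1837.4 over the other 5 lines, with Foxa2 and Afp under the median of every array. Of 10 trophectoderm markers, 5 were called lower in IP14D-101 than in R1, led by the keratins Krt8 (-3.11 ± 0.14) and Krt18 (-2.82 ± 0.16). The part of such cells in the values of the 9 genes was not tested.

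**Figure D3:**
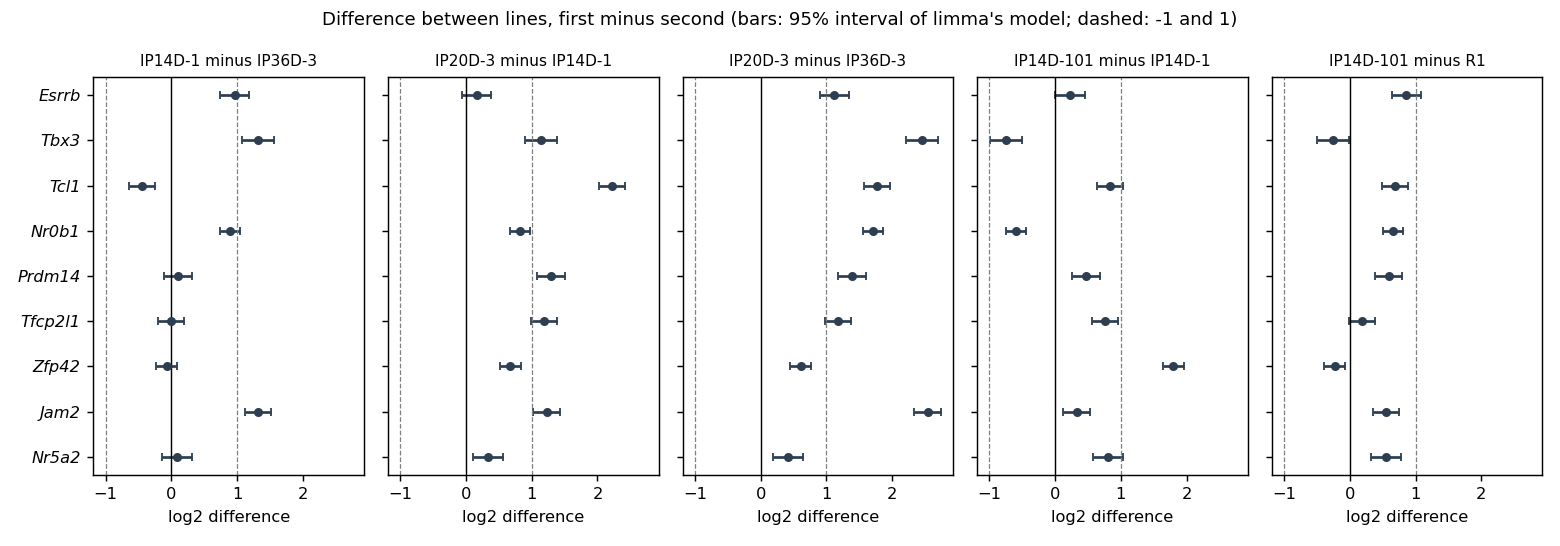
Log2 difference (horizontal axes) of each of the 9 genes in 5 comparisons of lines without ESC2, first line minus second; points are differences of means of 3 arrays, bars the 95% interval of limma's model, dashed lines -1 and 1. Against IP36D-3, IP20D-3 was above 1 for 7 genes, whereas no gene passed 1 between IP14D-101 and R1. Intervals of comparisons with IP20D-3 or IP14D-101 are descriptions, since levels in these lines chose several of the genes.

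The other genes of the network did not follow the 9 as a block, although some ran with them. Over the 6 line means, their Pearson correlation with the mean of the 9 was above 0 for 14 genes and below 0 for 9. It had a median of 0.28, from -0.716 for Zfp281 to 0.889 for Nanog, with Klf2 at 0.883 and Klf4 at 0.878. Of 23 measured pluripotency genes outside the 9, 4 were called higher in IP14D-1 than in IP36D-3 and none lower: Zfp57, which maintains imprints (1.67 ± 0.10), the Krüppel-like factors Klf2 (1.38 ± 0.09) and Klf5 (1.05 ± 0.08), and Mybl2 (1.18 ± 0.08). The median of the 23 was 0.16. In IP20D-3 they were split: against IP36D-3, Klf2 (1.58 ± 0.09) and Klf4 (1.10 ± 0.07) were called higher, and the homeobox gene Gbx2 (-2.31 ± 0.15) and Dppa3 (-1.02 ± 0.07) lower. Against IP14D-1 none was called higher and 2 lower, Gbx2 (-2.29 ± 0.15) and Zfp57 (-1.59 ± 0.10). In IP14D-101, Gbx2 (1.65 ± 0.15) and Fgf4 (1.05 ± 0.10) were called higher and Rif1 (-1.01 ± 0.16) lower than in IP14D-1, and Dppa3 (1.75 ± 0.07) and Gbx2 (1.07 ± 0.15) higher than in R1.

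Upstream pathways were counted in the same way. Of 9 LIF and STAT3 pathway genes, none was called between IP14D-1 and IP36D-3 or between IP20D-3 and IP14D-1. Their correlation with the mean of the 9 members over the 6 line means had a median of 0.392, from -0.317 for Socs3 to 0.91 for Stat3. IP20D-3 had more of the receptor gene Lifr than IP36D-3 (1.08 ± 0.11) and less of the STAT3 targets Bcl3 (-1.32 ± 0.09) and Socs3 (-1.04 ± 0.15). IP14D-101 had more Socs3 (1.57 ± 0.15) and Bcl3 (1.31 ± 0.09) than IP14D-1, and against R1 it had 2 called higher and 1 lower. Of 14 FGF and ERK pathway genes, IP20D-3 had none called higher, 3 lower than in IP14D-1 and 2 lower than in IP36D-3, among them the ligand Fgf5 (-1.42 ± 0.21 and -2.33 ± 0.21), the receptor Fgfr1 (-1.18 ± 0.07 against IP14D-1) and the ERK phosphatase Dusp6 (-1.54 ± 0.11 against IP36D-3). Fgf5 lay under the array median in IP20D-3, at 4.09 ± 0.39. Dusp6 was also the 1 gene of this list called between IP14D-1 and IP36D-3, at -1.01 ± 0.11. In IP14D-101, 1 was called higher and 2 lower than in IP14D-1, and 1 lower than in R1. Of 10 Wnt pathway genes, the target genes Sp5 (1.77 ± 0.16) and Axin2 (1.31 ± 0.16) were called higher in IP14D-1 than in IP36D-3. IP20D-3 had 3 called lower than in IP14D-1, Sp5 (-2.64 ± 0.16), Axin2 (-2.14 ± 0.16) and the transcription factor gene Lef1 (-1.39 ± 0.14), and Lef1 lower than in IP36D-3 (-1.26 ± 0.14). IP14D-101 had 1 called lower than in IP14D-1 and 2 lower than in R1.

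Some genes of the primed state were lower in IP20D-3, where the mean of the 9 genes was highest, and most did not meet the rule. Of 14 epiblast genes, 6 were called lower in IP20D-3 than in IP14D-1 (2.15% of all genes) and 5 lower than in IP36D-3 (1.89%), with none higher. The list medians were -0.75 and -0.51, and the list was chosen with earlier results of these data known. The called genes included the POU factor gene Pou3f1 (-1.99 ± 0.14 and -1.67 ± 0.14) and Sall2 (-1.62 ± 0.20 and -2.03 ± 0.20). Otx2, a homeobox factor of the postimplantation epiblast, was at -2.19 ± 0.16 against IP36D-3. Its level was as low in R1 (6.57 ± 0.12) as in IP20D-3 (6.56 ± 0.34). In IP20D-3, 5 of the 14 had a line mean under the array median, among them Sall2 (4.55 ± 0.59) and Fgf5 (4.09 ± 0.39). Cer1 and Foxa2 were under the median of every array. Between IP14D-1 and IP36D-3, 1 was called, Fst (1.41 ± 0.17), and in IP14D-101 2 were lower than in IP14D-1 and 3 lower than in R1. Of 8 DNA methylation enzymes, the de novo methyltransferases Dnmt3a and Dnmt3b were called lower in IP20D-3 than in IP14D-1 (-1.30 ± 0.12 and -1.18 ± 0.07) and than in IP36D-3 (-2.26 ± 0.12 and -1.40 ± 0.07), and the 5-methylcytosine oxidase Tet2 higher (1.08 ± 0.14 and 1.09 ± 0.14). None of the 8 was called between IP14D-1 and IP36D-3. IP14D-101 had more Dnmt3a than IP14D-1 (1.02 ± 0.12) and R1 (1.94 ± 0.12).

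Dnmt3b and the mean of the 9 genes ran in nearly opposite order across the lines. Dnmt3b was 12.06 ± 0.03 in ESC2, 11.83 ± 0.04 in IP36D-3, 11.64 ± 0.06 in R1, 11.62 ± 0.08 in IP14D-1, 11.18 ± 0.07 in IP14D-101 and 10.43 ± 0.04 in IP20D-3. Its Pearson correlation with the mean of the 9 over the 6 line means was -0.954. The same measure was -0.936 for Fgf5, -0.867 for Pou3f1, -0.859 for Sall2 and -0.846 for Otx2, but -0.513 for Dnmt3a. Fgf5 lay under the array medians in R1 (4.83), IP14D-101 (4.03) and IP20D-3 (4.09), and Sall2 in IP20D-3 (4.55), so their low ends are near the floor. Dnmt3a broke the pattern in IP14D-101, where it was 10.26 ± 0.10 although the mean of the 9 was second highest. The 4 epiblast genes named are among the most negative of their list: over its 14 genes the correlation had a median of -0.565, was below 0 for 11, and reached 0.126 for Cer1. Over the 8 methylation enzymes it had a median of 0.194, from the -0.954 of Dnmt3b to 0.863 for the maintenance factor gene Uhrf1. The genes shown were picked for display with their values known, and line means share arrays and scaling, so the correlations are a description.

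**Figure D4:**
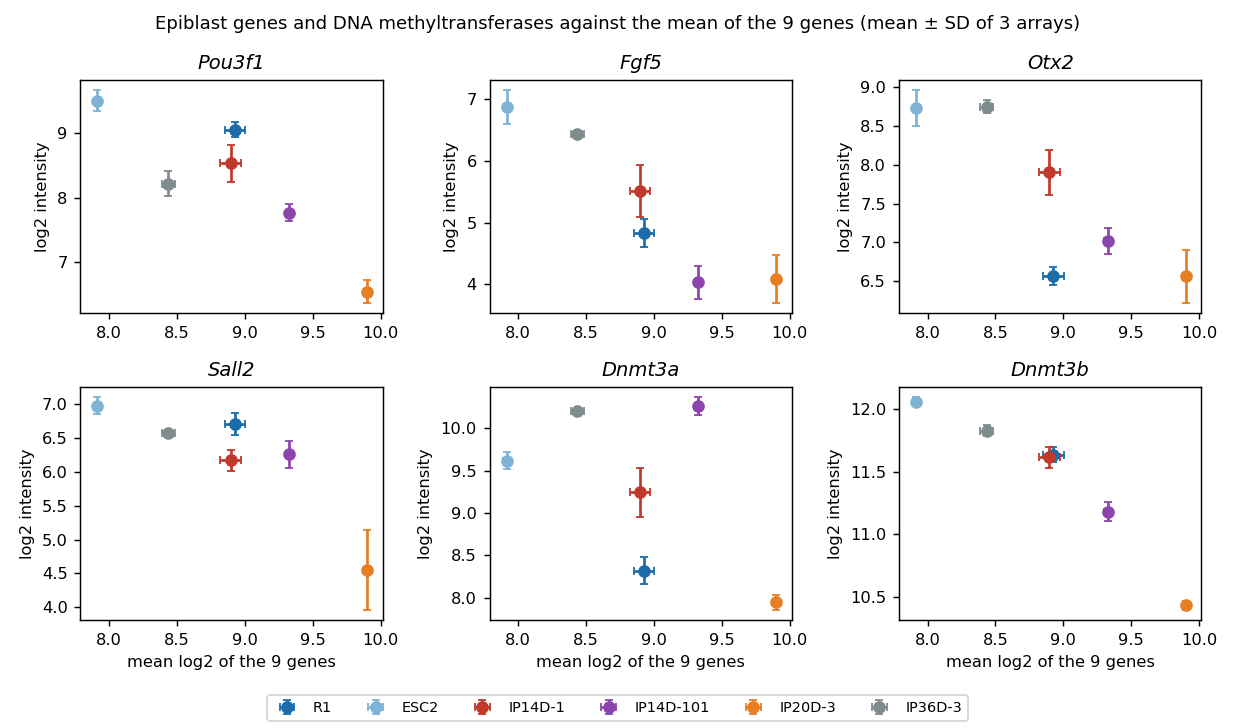
Log2 intensity of 4 epiblast genes and 2 DNA methyltransferase genes (vertical axes) against the mean log2 intensity of the 9 genes (horizontal axes); each point is a line, with SD over 3 arrays as bars. Dnmt3b descends from 12.06 in ESC2 to 10.43 in IP20D-3, while Dnmt3a is high in IP14D-101 (10.26).

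Relatives of the 9 genes gave another view of whether whole families moved. Of 29 measured relatives, such as other T-box, PRDM, estrogen-related receptor and junctional adhesion genes, none was called between IP14D-1 and IP36D-3. In IP20D-3, Prdm1 (1.21 ± 0.12) and Grhl1 (1.19 ± 0.11), of the CP2 superfamily, were called higher than in IP14D-1, and Esam (-1.20 ± 0.10) lower than in IP36D-3. In IP14D-101, 1 was called lower than in IP14D-1 and 2 lower than in R1, Grhl2 in both. Tbx2, the closest relative of Tbx3, lay under the median of every array. Tcl1b3, which lies in the same gene cluster as Tcl1, was 9.0 ± 0.11 in IP20D-3, its lowest line mean, where Tcl1 was highest. The median distance from the lowest to the highest line mean was 0.72 over the relatives and 2.33 over the 9 genes. Since the 9 were chosen for differences between these lines, and 5 of the 29 relatives were under the median of every array, nothing is read from this gap. Of 4 measured genes of the rare 2-cell-like state, 1 was called in 4 of the 5 comparisons without ESC2, Usp17la each time, and none between IP20D-3 and IP36D-3. Usp17la was higher in IP14D-1 than in IP36D-3 (1.54), IP20D-3 (by the reverse difference, -1.18) and IP14D-101 (-1.26), and lower in IP14D-101 than in R1 (-2.30). It lay under the array median in IP36D-3 (3.98), IP14D-101 (4.26) and IP20D-3 (4.34), as Tcstv1 and Tcstv3 did on every array.

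With all lines included, 7 of the 9 genes, all but Zfp42 and Nr5a2, had like patterns from line to line. Over the 18 arrays the 36 pairs had a median Pearson correlation of 0.788, from -0.124 for Nr0b1 and Nr5a2 to 0.939 for Tcl1 and Prdm14, and 15 pairs exceeded 0.8. Nr5a2 correlated with the others at -0.12 to 0.50 and Zfp42 at -0.06 to 0.64. The 3 arrays of a line share their source, so these values describe 6 lines rather than 18 independent cultures, and over the 6 line means the median was 0.793. Without the ESC2 arrays it was 0.638, and without the IP20D-3 arrays 0.634. Pairs among the 7 ranged from 0.46 (Nr0b1 and Tfcp2l1) to 0.944 (Tcl1 and Prdm14) without ESC2. Without IP20D-3 they ranged from 0.342 (Tbx3 and Tcl1) to 0.926 (Esrrb and Prdm14), and Zfp42 and Tfcp2l1 stood at 0.852. Because the genes were chosen on shared differences, their likeness is a description.

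**Figure D5:**
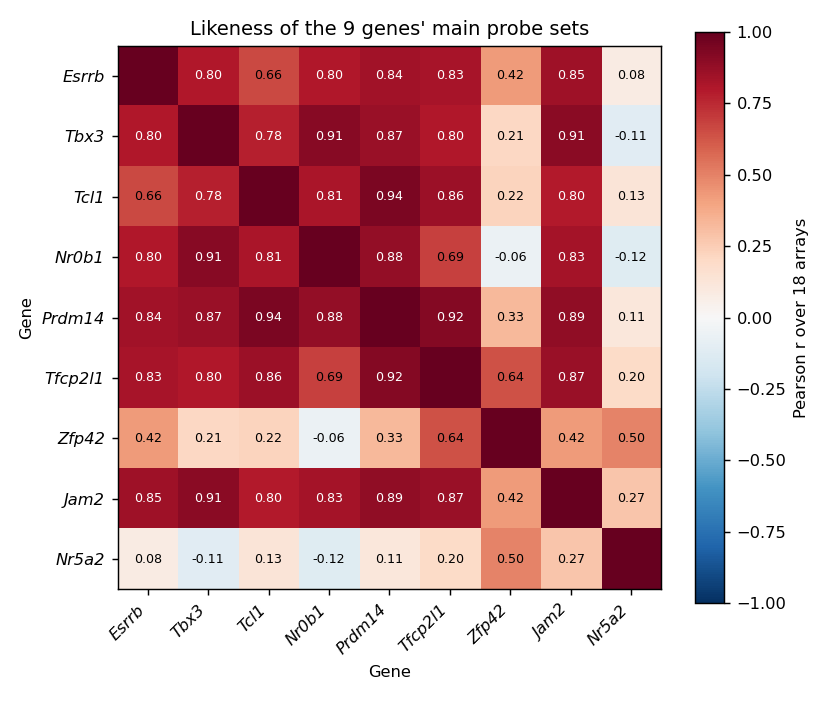
Pearson correlation over the 18 arrays for each pair of the 9 genes' main probe sets (colour and number); rows and columns are genes. The block from Esrrb to Tfcp2l1 and Jam2 is high, up to 0.94 for Tcl1 and Prdm14, while the Zfp42 and Nr5a2 rows are pale.

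Outside the 9, the genes most like each member were sought among 8746 genes with a mean of at least 6, by correlation over the 18 arrays. For Tbx3 these were Slc7a1, a cationic amino acid transporter (0.980), the stress-response factor gene Nfe2l1 (0.970) and asparagine synthetase, Asns (0.966). Slc7a1 climbed from 8.45 in ESC2 to 10.77 in IP20D-3. For Jam2 the closest was the lactate dehydrogenase subunit gene Ldhb (0.981), then Dpf2 and Fbxo42. For Prdm14 it was Ifitm2 (0.982), then Glb1 and Smim14; for Tcl1 Lap3 (0.978), then Bphl and Ndufaf3; and for Nr0b1 Amdhd2 and Uchl1 (both 0.978), then Bicral. For Esrrb it was Scpep1 (0.977), then Gnpda1 and Gtpbp6, and for Tfcp2l1 the lipoprotein receptor gene Scarb1 (0.978), then Hemk1 and Ift140.

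Zfp42 and Nr5a2 had other neighbours. Zfp42 was most like Fam168a (0.962), then the proteoglycan gene Sdc4 and Tmem230 (both 0.958), and Sdc4 was 9.52 in R1 and 8.63 in IP14D-101 against 6.21 to 7.26 in the other 4 lines. Nr5a2 was most like the receptor gene Notch1 (0.892), then Npepps and Ei24. For the mean of the 9 genes, Scarb1 (0.984), Phgdh, the first enzyme of serine synthesis (0.979), Fbxo42, Ap3b1 and Sod2 ranked highest. Tceal8 (-0.981), Cthrc1 (-0.971), Nepro, Cul1 and Sec61a1 ranked lowest. These ranks describe these lines only.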

How the data were processed

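Intensities of 45101 probe sets on 18 arrays were deposited by the authors, who used RMA, as the design text and, per the labels, the tool list state; its version is not given here. RMA corrects background, quantile-normalises the arrays and combines probes, so levels of different probe sets are not comparable. The intensities are linear and log2 was taken here. Leaving out 64 control probe sets, limma 3.58.1 in R 4.3.3 (lmFit and eBayes, a mean per line, 12 residual degrees of freedom before moderation) was fitted to all 18 arrays, with Benjamini-Hochberg adjustment over 45037 probe sets; it was tested on simulated data. Summaries used Python 3.11.15 with pandas 2.3.3. The GEO platform annotation gave 1 symbol to 34945 probe sets, several to 932 and none to 9160.

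Each gene was taken by its probe set of highest mean. All 9 genes with every probe set were named, up to 4 called genes of each list per comparison, and the genes most alike by correlation. Genes outside this rule (Pou5f1, Sox2, Nanog, Tbx2, Tcl1b3, and the genes displayed with Dnmt3b) were named with their values known. The members, the gene lists and the tests were chosen with earlier results of these data known. Upstream sequences are RefSeq's.

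Replicate numbers are shared between lines. Deviations of same-numbered arrays from their line means correlated at 0.106 to 0.176 in all 3 pairs of IP14D-1 and IP36D-3, which were treated as paired for the check; a fit with the number as a block changed no call.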

Additional observations from a re-analysis of the deposited data

How the results depend on the processing

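Differences are listed in the order IP14D-1 minus IP36D-3, IP20D-3 minus IP14D-1, IP20D-3 minus IP36D-3, IP14D-101 minus IP14D-1 and IP14D-101 minus R1, where 617, 902, 772, 678 and 458 genes were called. With log2(intensity + 16), which shrinks low values by construction, these were 388, 588, 479, 412 and 302. With the mean of a gene's probe sets, the first comparison had 396 called genes and 1 called member in place of 2. Without a minimum difference, 5, 8, 9, 8 and 7 of the 9 members passed. So did 7234, 7992, 6386, 6731 and 3854 genes, which is 39.8%, 43.9%, 35.1%, 37.0% and 21.2% of all genes. Against ESC2, R1 had 3 members at least 1 higher in place of 5 with the mean of probe sets, and IP36D-3 had 0 in place of 1 with quantile normalisation repeated, array weights, log2(intensity + 16) or the mean of probe sets. The median correlation of pairs was 0.638 without ESC2 and 0.634 without IP20D-3, the latter chosen after seeing the data. Leaving out an array gave 2 to 3, 5, 7, 1 and 0 called members and 593 to 702, 880 to 984, 736 to 818, 562 to 770 and 455 to 488 called genes. Against ESC2 it gave 5 members in R1, 4 to 5 in IP14D-1, 8 in IP14D-101, 7 in IP20D-3, and for IP36D-3 0 to 1. Member counts outside the first comparison describe values that chose the genes, and the first is not independent of that choice. Nothing is therefore read from the member counts of this section. No member's called difference changed sign, and of 675 single-member values in the 5 comparisons 668 stayed on the same side of the threshold. The replicate block gave 2, 5, 7, 1 and 0 called members; outside IP14D-1 and IP36D-3 the arrays share only a number. The cause of these shifts was not tested. With 3 arrays and 1 line per group, no value speaks for a strain or a cell type.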
